A study of Mus musculus with 34 samples.

Results

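The genes described here are 10 markers of T cells and natural killer (NK) cells, followed in the liver of mice with a Pdgf-c transgene: Cd3d, Cd3e, Cd3g, Cd4, Cd8a, Cd8b1, Gzma, Gzmb, Nkg7 and Il2rb. A probe set counted for a gene only if that gene was its only symbol in the platform's annotation, and the probe set of highest mean signal over the 34 arrays stood for the gene. All 10 markers were measured, among 18193 genes with such a probe set. They had 16 probe sets in all, so 6 further ones were followed beside the 10 that stood for the genes.

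Liver RNA was hybridised to Affymetrix mouse expression arrays, 1 array per sample, in 7 groups. The wild-type livers came from C57/B6 mice at week 20 (5 arrays) and week 48 (4 arrays). The Pdgf-c Tg mice, which carry a transgene for platelet-derived growth factor C, gave 5 livers at week 20, 5 livers at week 48 and 5 tumours at week 48. A further 5 transgenic livers at each age came from mice on a diet with 0.06% peretinoin, an acyclic retinoid, which was given from weaning at week 4. Every tumour and every peretinoin-fed animal carried the transgene, and no wild-type group is labelled with peretinoin. The animals of week 20 were taken for the study of hepatic fibrosis and those of week 48 for hepatic tumours. The sources used here give no promoter of the transgene, no count of founder lines and no link between a tumour and a liver of the same mouse. Nothing in them says that the samples of a group came from separate animals, so the p-values measure the spread between these samples.

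T cells recognise antigen through a receptor whose signal leaves the cell surface through the CD3 chains, which Cd3d, Cd3e and Cd3g encode. Helper T cells carry the coreceptor CD4, and cytotoxic T cells carry CD8, made of an alpha chain (Cd8a) and a beta chain (Cd8b1). Cytotoxic T cells and NK cells store granzymes (Gzma, Gzmb) and the granule membrane protein NKG7, and both respond to interleukin 2 and interleukin 15 through the receptor chain that Il2rb encodes. The normal liver holds many resident NK and T cells, and in mice CD4 is also found on some dendritic cells. In whole tissue, fewer cells of a type and less RNA per cell cannot be told apart.

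Of the 4 markers that passed the test for a higher level in transgenic liver at both ages, the 250 bases before the RefSeq transcription start are shown. Whether these genes share regulation was not tested. They lie in GRCm38.p6 at chr9:44981536-44981785 on the plus strand (Cd3d), chr9:44980432-44980681 on the minus strand (Cd3g), chr14:56262335-56262584 on the minus strand (Gzmb) and chr7:43436888-43437137 on the plus strand (Nkg7). Each is written from 5′ to 3′ on the strand of its gene, and the last base is the one before the start. Capitals mark matches, on either strand, to short motifs. RUNX factors of lymphocytes were searched by the letters TGTGGT. ETS factors were searched by AGGAAG, and E-box proteins such as those of early T cells by CACCTG. T-box factors, to which T-bet and Eomes belong, were searched by GTGTGA, and the core promoter element named TATA box by TATAAA.
Cd3d: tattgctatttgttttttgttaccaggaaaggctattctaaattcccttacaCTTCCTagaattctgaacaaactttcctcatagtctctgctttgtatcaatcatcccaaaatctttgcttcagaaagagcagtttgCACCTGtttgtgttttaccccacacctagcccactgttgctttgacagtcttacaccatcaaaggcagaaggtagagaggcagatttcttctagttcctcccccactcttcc
Cd3g: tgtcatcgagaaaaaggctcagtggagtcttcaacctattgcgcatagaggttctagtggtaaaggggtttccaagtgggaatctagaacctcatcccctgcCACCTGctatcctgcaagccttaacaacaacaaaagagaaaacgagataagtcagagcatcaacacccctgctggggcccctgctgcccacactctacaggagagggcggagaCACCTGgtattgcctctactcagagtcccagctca
Gzmb: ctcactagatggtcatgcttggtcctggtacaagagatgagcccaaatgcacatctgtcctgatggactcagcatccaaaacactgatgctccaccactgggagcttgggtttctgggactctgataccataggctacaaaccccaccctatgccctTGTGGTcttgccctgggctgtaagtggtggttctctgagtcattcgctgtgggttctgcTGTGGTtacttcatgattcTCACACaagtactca
Nkg7: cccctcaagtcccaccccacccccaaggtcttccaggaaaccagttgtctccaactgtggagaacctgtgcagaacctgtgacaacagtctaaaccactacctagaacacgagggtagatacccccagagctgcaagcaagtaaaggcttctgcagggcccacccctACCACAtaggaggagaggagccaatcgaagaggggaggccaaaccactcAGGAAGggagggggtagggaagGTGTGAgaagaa
No match overlapped another in these 4 windows. Cd3d and Cd3g are neighbours that start 1355 bases apart and are transcribed away from each other. Both hold CACCTG, once in Cd3d and at 2 places in Cd3g, and Cd3d also holds AGGAAG. Gzmb holds TGTGGT at 2 places, and Nkg7 holds it as ACCACA on its own strand, next to 1 match each of AGGAAG and GTGTGA. Gzmb has GTGTGA as TCACAC, ending 10 bases before the start. Windows were found for 7 of the 10 markers. TGTGGT occurred in 3 of the 7 and in 14.0% of the 32851 windows of the table, AGGAAG in 3 and in 29.5%, CACCTG in 3 and in 17.2%, GTGTGA in 2 and in 12.3%, and TATAAA in 0 of the 7 and in 12.4%. These matches describe the letters only, and binding was not measured.

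Facts of the whole series that touch these genes are few. Signals are MAS5 values on a linear scale, which carry an equal trimmed mean on every array, and the medians of the arrays ranged from 71.5 to 95.7. Of the 10 markers, 8 had a probe set in the upper 60% by mean signal and 1, Cd8a, in the upper 40%. Cd4 and Cd8b1 lay below the upper 60%, and the file holds no detection calls. On 6 arrays a list of skeletal muscle genes or of pancreatic acinar genes exceeded its median over the arrays by at least 3 on the log2 scale: wild type replicate 4, transgenic replicate 4 and peretinoin replicate 1 at week 48, and transgenic replicate 5 and peretinoin replicates 3 and 5 at week 20. The hepatocyte genes Alb, Apoa1, Ttr, Hnf4a and Cps1 summed to a signal of at least 109330 on every array, tumours included. The sum does not show the level of each gene. Changes below are differences of log2(signal + 16), written with their moderated standard error from limma, and they understate the change of low genes. A gene was called, and is said to have risen or fallen, where its two-sided p, adjusted after Benjamini and Hochberg over the 18193 genes, was under 0.05.

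**Figure D1:**
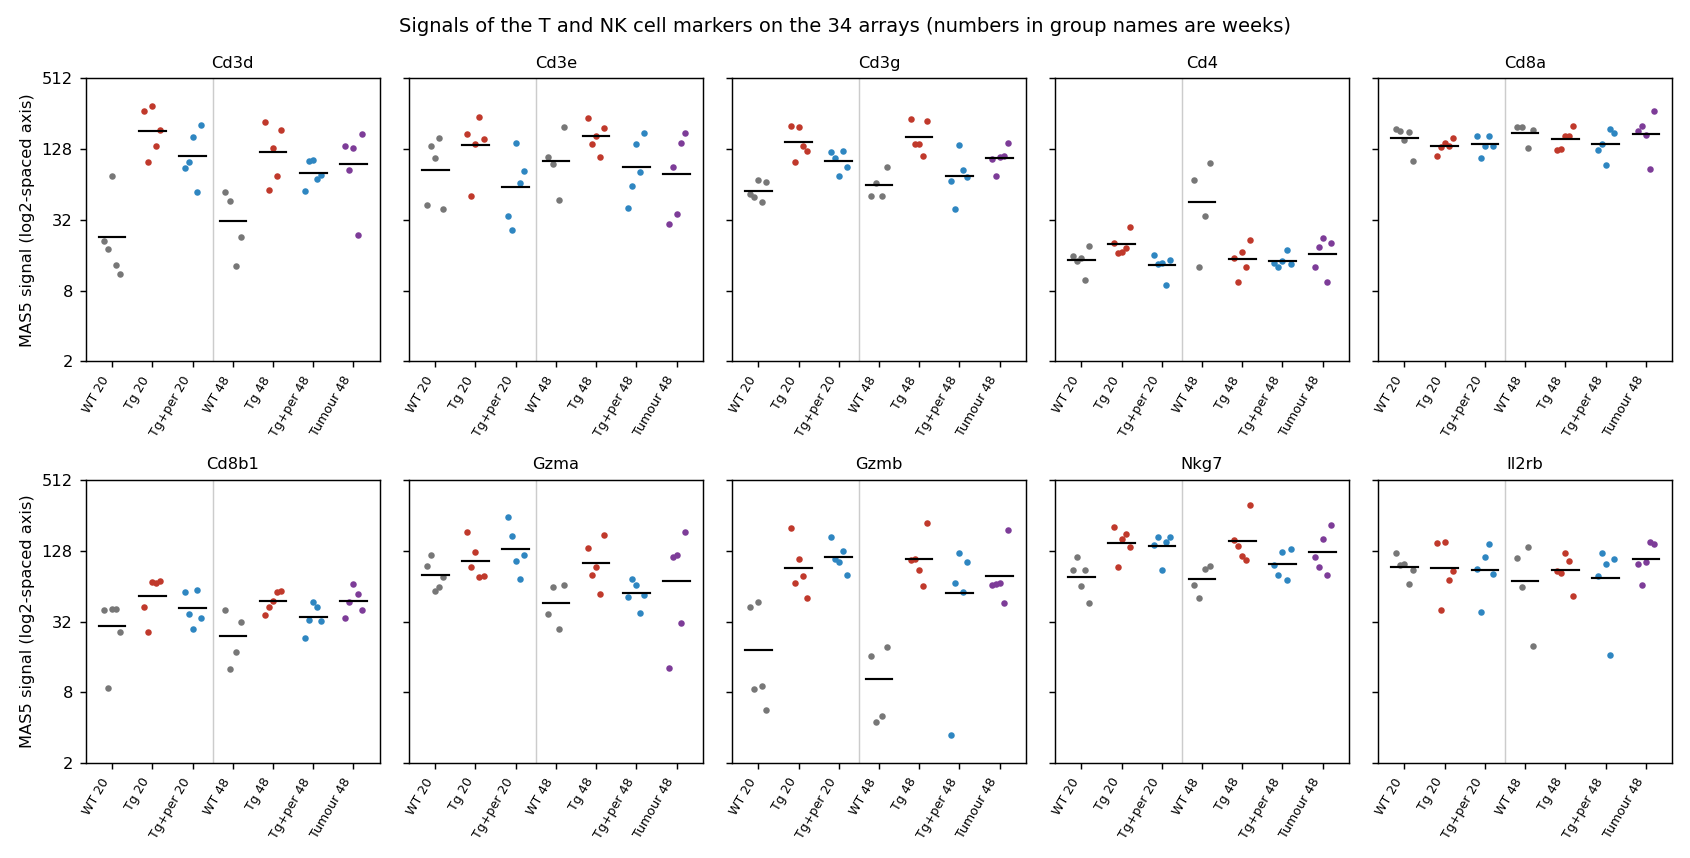
MAS5 signal of the probe set that stands for each marker (log2-spaced vertical axis, no unit) on every array, by group (WT, wild type; Tg, transgenic; Tg+per, transgenic with peretinoin; numbers are weeks). Points are arrays and black lines are group means of log2(signal + 16) turned back to signals. Cd3d, Cd3g and Gzmb of transgenic liver lie wholly above wild type at both ages, and Cd4 is higher on 3 of the 4 wild-type arrays of week 48 than on any array of another group.

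The first comparison asked which markers differed between transgenic and wild-type liver at week 20. Of the 10 markers, 4 rose and none fell: the CD3 chains Cd3d and Cd3g and the cytotoxic granule genes Gzmb and Nkg7. Over all genes 16.3% were called in this comparison, and 11% were called higher. The median log2 change was 0.60 over the 10 markers and 0.02 over all genes. For 3 of the 4, Cd3d, Cd3g and Gzmb, no transgenic array overlapped a wild-type array, which held for 8.63% of all genes in that direction.

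Cd3d gave signals of 21.2, 18.1, 75.4, 13.2 and 11.1 in wild-type liver at week 20. In transgenic liver of that age it gave 268.7, 98.8, 299.9, 136.7 and 185.4. The lowest transgenic array was above the highest wild-type array, and wild-type replicate 3 stood apart from the other wild-type arrays. The log2 change was 2.35 ± 0.40, or 5.10-fold (adjusted p = 6.73e-05, limma, n = 5 and 5). Cd3g gave 53.6, 50.1, 70.3, 45.3 and 66.8 in wild-type liver and 201.2, 100, 197.2, 135.8 and 123.8 in transgenic liver. Here too the groups did not overlap, and the change was 1.16 ± 0.23 (adjusted p = 0.000574, limma). The remaining CD3 chain, Cd3e, gave 43.1, 135.4, 107.1, 159.6 and 39.9 against 173.8, 50.9, 141.3, 239.1 and 155.3. Its groups overlapped, with transgenic replicate 2 among the low wild-type arrays. Its change of 0.60 ± 0.44 was not called (adjusted p = 0.403, limma).

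Gzmb, a granzyme that starts apoptosis in target cells, gave 42.4, 8.5, 47.1, 9.1 and 5.7 in wild-type liver at week 20. The transgenic arrays gave 202, 67.8, 109.8, 78.2 and 50.5, all above the wild-type arrays. The change was 1.64 ± 0.42, or 3.11-fold (adjusted p = 0.00629, limma). Nkg7 gave 87.7, 112.5, 64.9, 87.6 and 46.1 against 205.4, 93.3, 161.8, 177 and 138.6. Transgenic replicate 2 fell within the wild-type range, and the change was 0.84 ± 0.27 (adjusted p = 0.0276, limma). This call ended with quantile normalisation or median centring of the arrays, and without any 1 of 5 arrays (wild type replicates 3 and 5, transgenic replicates 1, 3 and 4). Gzma, a tryptase of the same granules, had a mean signal of 82.1 ± 24.6 (SD, n = 5) in wild-type and 111 ± 44.8 (n = 5) in transgenic liver, and its change of 0.35 ± 0.38 was not called (limma adjusted p = 0.611).

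The coreceptors and the interleukin receptor chain did not pass at week 20 through the probe sets that stood for them. Cd8b1 gave 40.4, 8.8, 40.7, 41.1 and 26 in wild-type liver and 42.4, 26.3, 69, 68.2 and 71 in transgenic liver. Its groups overlapped through transgenic replicate 2, and its change was 0.60 ± 0.25 (adjusted p = 0.0936, limma). Cd4 had means of 14.9 ± 3.35 and 20.2 ± 4.56 (SD, n = 5 each) and a change of 0.23 ± 0.22 (limma adjusted p = 0.562). Cd8a changed by -0.19 ± 0.21 and Il2rb by -0.03 ± 0.37. For Cd8a and Il2rb the further probe sets gave other values, which are described after the comparisons.

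At week 48 the same comparison gave 5 called markers. Cd3d, Cd3g, Gzmb and Nkg7 rose in transgenic liver, and Cd4 fell. Of all genes 14.3% were called, 9.73% higher and 4.6% lower. The median log2 change was 0.79 over the 10 markers and 0.00 over all genes. The groups of Cd3d, Cd3g, Gzmb and Nkg7 did not overlap, which held for 10.4% of all genes in that direction.

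Gzmb had the largest change of the 10 at this age, 2.24 ± 0.45 or 4.72-fold (adjusted p = 0.00059, limma, n = 5 and 4). It gave 16.4, 4.5, 5 and 19.3 in wild-type liver and 107.7, 109.6, 87.3, 64.2 and 221.8 in transgenic liver. Transgenic replicate 5 was the highest and replicate 4 the lowest, still above every wild-type array. Cd3d gave 54.9, 46.2, 13 and 22.8 against 220.1, 57.7, 130.1, 75.2 and 185.3. The lowest transgenic array of Cd3d lay just above the highest wild-type array, and the change was 1.53 ± 0.42 (adjusted p = 0.0125, limma). Without wild type replicate 3 it was 1.29 with an adjusted p of 0.0665, so that array decided the call. Cd3g gave 51, 65.5, 51.3 and 90.9 against 231.2, 140.9, 143.1, 111 and 221.9, a change of 1.18 ± 0.25 (limma adjusted p = 0.00107).

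Nkg7 gave 65.1, 50.4, 90.4 and 96.1 in wild-type liver at week 48 and 157.8, 139.9, 116.3, 107.5 and 313.9 in transgenic liver. All transgenic arrays were above all wild-type arrays, and the change was 0.93 ± 0.28 (adjusted p = 0.0236, limma). The call was lost in a fit of these 2 groups alone and without wild type replicate 1, wild type replicate 2 or transgenic replicate 5, where the highest adjusted p was 0.0959. Cd3e gave 109.3, 95.8, 47.4 and 199 against 235.7, 141.4, 167.1, 110.6 and 193.5, overlapping groups with a change of 0.62 ± 0.47 (limma adjusted p = 0.427). Gzma had means of 48.4 ± 18.9 (SD, n = 4) and 108 ± 47.4 (n = 5) and a change of 0.91 ± 0.40 that was not called (limma adjusted p = 0.137). Cd8b1 changed by 0.67 ± 0.26 (adjusted p = 0.0841), Cd8a by -0.16 ± 0.23 and Il2rb by 0.26 ± 0.40, none of them called by limma.

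Cd4 went the other way, and its difference lay in the wild-type livers. It gave 69.9, 12.8, 34.4 and 97.3 on the wild-type arrays of week 48, against 15.1, 9.5, 17, 12.8 and 21.4 on the transgenic arrays. Replicates 1, 3 and 4 of the wild type were above every transgenic array, and replicate 2 was among them. The log2 change was -0.99 ± 0.24 (adjusted p = 0.00353, limma). Between wild-type livers of week 20 (15.8, 14.3, 15.2, 9.9 and 19.2) and week 48, Cd4 rose 1.99-fold (adjusted p = 0.0126, limma). In that comparison of ages 4.74% of all genes were called and 1.81% were called higher, and Cd4 was the only marker called. Both Cd4 calls ended without the 6 arrays that carry muscle or pancreas transcripts, of which wild type replicate 4 is one, and in fits of the compared groups alone. The rise with age also lost its call without wild type replicate 1 or replicate 4 of week 48. The further Cd4 probe set, 1427779_a_at, gave 11.2, 5.3, 14.8 and 14.8 in wild-type liver of week 48 and a change of -0.19 ± 0.16 in transgenic liver (limma adjusted p = 0.505). In wild-type liver of week 20 this probe set gave 1.6 to 5. In transgenic liver it gave 1.6 to 7.7 at week 20 and 4 to 10.5 at week 48. These signals are very low, and no test of age is given for this probe set.

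**Figure D2:**
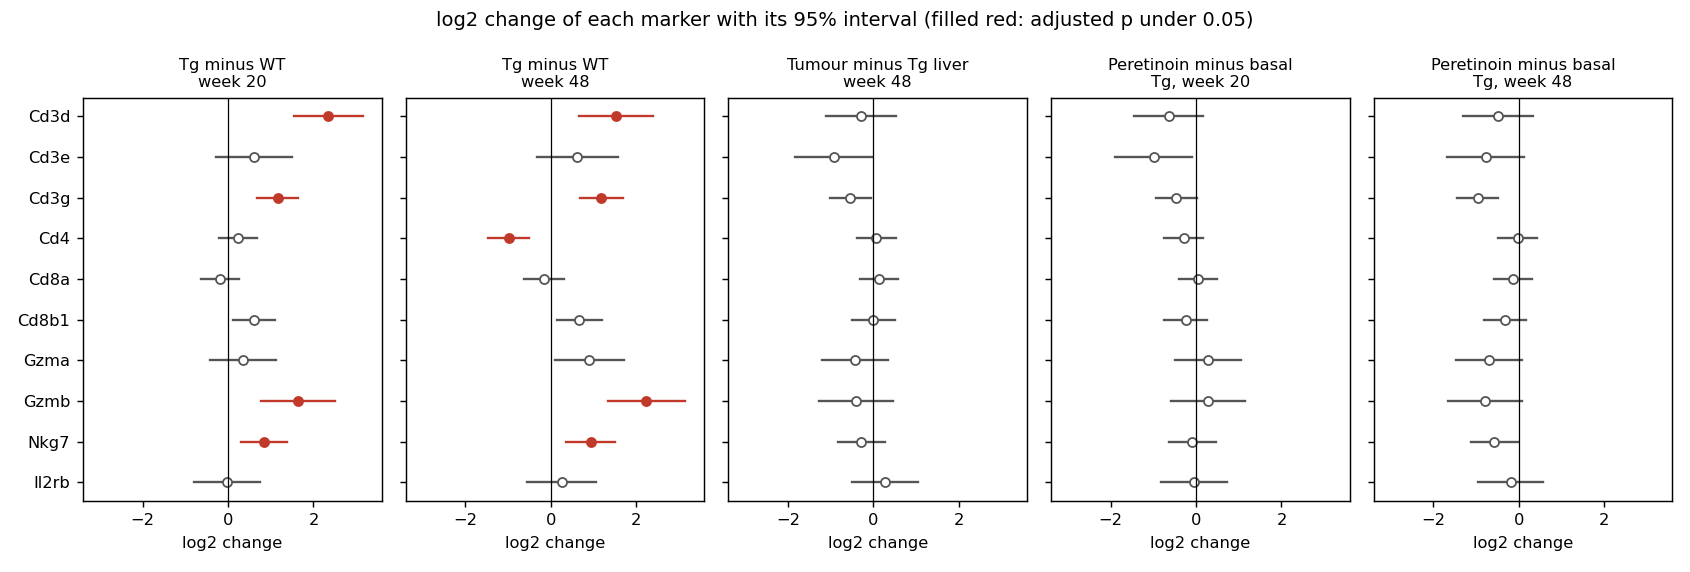
Difference of log2(signal + 16) for each marker in the 5 main comparisons (horizontal axis, log2 units), with 95% intervals from limma as bars. Filled red points are called at an adjusted p under 0.05: 4 markers in transgenic against wild-type liver at week 20, 5 at week 48, and none in the tumour and peretinoin comparisons.

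The changes with the transgene at the 2 ages were compared directly. The difference between ages was called for none of the 10 markers by limma, against 0.11% of all genes, and 1 marker, Cd4, had an unadjusted p under 0.05. The Cd4 difference was -1.21 ± 0.32 (adjusted p = 0.133, limma), and it was called without wild type replicate 2 of week 48. Cd3d had a difference of -0.82 ± 0.58 and Gzmb of 0.60 ± 0.61. Between week 20 and week 48, none of the 10 markers was called in transgenic liver on the basal diet, where 10.6% of all genes were and where 0 markers had an unadjusted limma p under 0.05. None was called on the peretinoin diet either, against 9.15% of all genes and with 1 marker at an unadjusted limma p under 0.05.

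Both wild-type groups stood at the bottom of the order of group levels for Cd3d, Cd3g, Gzmb and Nkg7. These genes are named here because they were called above wild type, so a low place of wild type was built in. The same place held for Cd8b1 and for the Cd8a probe sets 1425335_at, 1444078_at and 1451673_at. For Cd3d the mean log2 level fell from 7.64 in transgenic liver of week 20 through 7.09 at week 48, 6.997 with peretinoin at week 20, 6.80 in tumours and 6.59 with peretinoin at week 48 to 5.56 and 5.29 in wild-type liver of week 48 and week 20. For Gzmb the highest mean was that of the peretinoin livers of week 20 (7.03), followed by transgenic liver of week 48 (6.97). Over the 16 probe sets, 95 of 96 pairs of groups next to each other in such an order had overlapping arrays. The exception was Cd3d, where the peretinoin arrays of week 48 lay wholly above the wild-type arrays of week 48.

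The second question was whether tumours differed from the transgenic livers of the same age. The fit was unpaired, as the sources link no tumour to a liver. Same-numbered arrays of these groups had a mean r of 0.125 in their deviations from the group means, against -0.0314 for other pairs. A paired test was not run. No marker was called, and neither was any other gene by limma (0% of 18193), while 1390 genes and 2 markers had an unadjusted p under 0.05. The median change of the markers was -0.29, against 0.01 over all genes. With array weights 46 genes were called, and without the 6 arrays of other tissue 3, none of them a marker.

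Cd3e and Cd3g had the lowest changes of the 10 markers in tumours. Cd3e gave 29.4, 90.3, 36.1, 143.8 and 175.5 in tumours, of which 3 lay below every transgenic liver, and its change was -0.93 ± 0.44 (95% interval -1.83 to -0.03, adjusted p = 0.639, limma). Cd3g gave 106.1, 76.4, 109.2, 111.3 and 143.8, with a change of -0.54 ± 0.23 (interval -1.02 to -0.06, limma adjusted p = 0.58). Cd3d gave 137.1, 85.5, 130.1, 23.8 and 171.1, all but replicate 4 within the range of transgenic liver, and its change was -0.29 ± 0.40.

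The granule genes also overlapped between tumours and livers. Gzmb gave 66.2, 66.7, 67.7, 46.1 and 194.5, with replicate 5 apart from the rest, and Nkg7 gave 112.8, 93.1, 160.8, 80 and 212.9. Gzma gave 12.9, 114.4, 117.4, 31.4 and 186.9, with replicates 1 and 4 below every transgenic liver of week 48 (55.1 to 174.7). Their changes were -0.41 ± 0.42, -0.28 ± 0.27 and -0.43 ± 0.38. Cd8b1 (-0.00 ± 0.25), Cd4 (0.06 ± 0.22), Cd8a (0.13 ± 0.21) and Il2rb (0.27 ± 0.37) were at or above 0 within their errors. Intervals of this width do not show that tumours and livers are alike.

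Tumours were set against wild-type liver of week 48 as well, a comparison that shares both groups with those above. Gzmb rose by 1.83 ± 0.45 (adjusted p = 0.0032, limma) and Cd3d by 1.23 ± 0.42 (adjusted p = 0.0383), and Cd4 fell by 0.92 on the log2 scale (adjusted p = 0.00463). The Cd4 call was lost without the arrays of other tissue (log2 change -0.63, limma adjusted p = 0.0679) and with the 2 groups alone (adjusted p = 0.109). Of all genes 19% were called, 12.5% higher and 6.56% lower. All 5 tumours were above the 4 wild-type arrays for Gzmb, while tumour replicate 4 overlapped them for Cd3d. The share of all genes without overlap between tumours and wild type was not counted. The Cd3d call was lost with an offset of 64, without the arrays of other tissue, with the 2 groups alone and without any 1 of 5 arrays (wild type replicates 3 and 4, tumour replicates 1, 3 and 5). Cd3g (0.64 ± 0.25, adjusted p = 0.0685) and Nkg7 (0.65 ± 0.28, adjusted p = 0.113) were not called by limma.

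The third question was whether the peretinoin diet moved the markers in transgenic liver. These comparisons use the same transgenic arrays as the comparisons with wild type and tumour. At week 20 none of the 10 was called by limma, against 1.45% of all genes, and 1 had an unadjusted p under 0.05. The median change was -0.17 over the markers and -0.00 over all genes. Cd3e gave 34.3, 26.3, 145, 65.8 and 83.5 with peretinoin, a change of -0.99 ± 0.44 from the basal diet (interval -1.89 to -0.10, adjusted p = 0.251, limma). Cd3d gave 88.6, 98.7, 163.5, 55.4 and 204.8 (-0.65 ± 0.40, adjusted p = 0.455). Cd3g gave 121.1, 107.8, 76, 123.2 and 90.5 (-0.46 ± 0.23, adjusted p = 0.339).

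All 3 CD3 chains were thus below 0 with overlapping groups, and the granule genes were near 0. Gzmb gave 167.2, 110.1, 102.4, 127.3 and 79.7 with peretinoin at week 20, a change of 0.28 ± 0.42 from the basal diet. Gzma (0.28 ± 0.38) and Nkg7 (-0.09 ± 0.27) were also within their errors. The Cd4 arrays of the 2 diets did not overlap (9 to 16 with peretinoin, 16.9 to 27.9 without). At this low signal the change was -0.30 ± 0.22 and was not called (limma adjusted p = 0.56). The share of all genes without overlap between the diets was not counted.

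At week 48 all 10 markers had a value below 0 with peretinoin through the probe sets that stood for them. None was called by limma, against 0.341% of all genes. Of the further probe sets, Cd8a 1440811_x_at (0.17 ± 0.37) and Cd4 1427779_a_at (0.06 ± 0.15) lay above 0 and the others below. The median change was -0.53 over the markers and -0.02 over all genes, and 2 markers had an unadjusted p under 0.05. Cd3g came nearest to the threshold. It gave 68.4, 39.9, 138.1, 84.5 and 73.9 with peretinoin against 231.2, 140.9, 143.1, 111 and 221.9 on the basal diet. Replicate 3 was the only peretinoin array within the range of the basal diet, and the change was -0.97 ± 0.23 (adjusted p = 0.0572, limma). With an offset of 64, with the upper 60% of probe sets, with the mean of a gene's probe sets, without the intensity trend, with the replicate block, without transgenic replicate 4 or without peretinoin replicate 3 it was called, at adjusted p-values from 0.0161 to 0.0493.

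The other markers of week 48 had wider overlap between the diets. Gzmb gave 3.5, 68.1, 123.6, 56.7 and 102.2 with peretinoin, where replicate 1, an array with muscle transcripts, was lower than any other array of the series, and its change was -0.79 ± 0.42 (adjusted p = 0.487, limma). Nkg7 gave 96.7, 79.3, 125.8, 72.1 and 133.2 (-0.57 ± 0.27, adjusted p = 0.398) and Gzma 52.2, 74.2, 65.7, 37.7 and 53.9 (-0.70 ± 0.38, adjusted p = 0.492). Cd3e changed by -0.78 ± 0.44 and Cd3d by -0.49 ± 0.40. Cd8b1 (-0.32 ± 0.25), Il2rb (-0.19 ± 0.37), Cd8a (-0.13 ± 0.21) and Cd4 (-0.02 ± 0.22) were nearer to 0. The difference of the peretinoin change between ages was called for none of the 10 by limma, against 0.264% of all genes, and 0 had an unadjusted p under 0.05. For Gzmb that difference was -1.07 ± 0.60 and for Gzma -0.98 ± 0.54.

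The further probe sets of Cd8a and Il2rb gave a different picture from the ones that stood for these genes. They were tested in a fit of all 45037 probe sets other than controls. At week 20, 2 of the 6 further probe sets rose in transgenic liver, 1 of Cd8a and 1 of Il2rb, where 10.2% of all probe sets were called and 7.06% were called higher. None of the 6 was called by limma in transgenic against wild-type liver at week 48 (9.5% of all probe sets), in tumours against liver (0%) or with peretinoin at week 20 (1.4%) and week 48 (0.246%). In these 4 comparisons 2, 0, 1 and 0 of the 6 had an unadjusted p under 0.05. How many of all probe sets had groups without overlap was not counted. Over genes, transgenic liver lay wholly above wild type for 8.63% at week 20 and 10.4% at week 48.

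For Cd8a, the probe set of highest mean signal, 1440164_x_at, gave 189.9, 184.5, 153.3, 179 and 101.1 in wild-type liver of week 20 and 112.6, 132.8, 143.9, 136.8 and 158.2 in transgenic liver, with no higher level in the transgenic group. Its suffix marks probes that may also match other transcripts. The next, 1444078_at, gave 115.3, 75.4, 56.6, 88.4 and 58 against 220.2, 104.8, 141.9, 194.5 and 129.6, and rose by 0.87 ± 0.23 (adjusted p = 0.0124, limma). Only transgenic replicate 2 overlapped the wild type. Probe set 1425335_at changed by 1.02 ± 0.40 with groups that did not overlap (adjusted p = 0.106), 1451673_at by 0.53 ± 0.27 (adjusted p = 0.247) and 1440811_x_at by -0.06 ± 0.37. At week 48 the changes were 0.74 ± 0.25 for 1444078_at, here with no overlap (adjusted p = 0.0525, limma), and 0.85 ± 0.29 for 1451673_at (adjusted p = 0.0556). For 1425335_at the groups of week 48 overlapped, and the change was 0.55 ± 0.43 (adjusted p = 0.475, limma). Thus 3 of the 5 Cd8a probe sets had values above 0.5 at week 20 and 2 had values below 0.

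For Il2rb the probe set that stood for the gene, 1417546_at, had means of 94.8 ± 19.9 and 100 ± 49.3 (SD, n = 5 each) in wild-type and transgenic liver of week 20. The further one, 1448759_at, gave 14.8, 17.4, 16.9, 14.4 and 7.4 against 122.6, 65.6, 73, 38.2 and 41.4. Its groups did not overlap, and it rose by 1.40 ± 0.38 (adjusted p = 0.0136, limma). At week 48 it gave 16, 10.1, 20.4 and 21.1 in wild-type liver and 18.4, 18.7, 15.2, 14.9 and 20.2 in transgenic liver, a change of 0.04 ± 0.40. With peretinoin at week 20 it gave 13.1, 15, 41.1, 6.3 and 103.5, so that 3 of the 5 arrays were near the wild-type level, and the change of -0.90 ± 0.38 was not called (limma adjusted p = 0.242). Without transgenic replicate 1 of week 20, neither the Cd8a nor the Il2rb probe set was called. On that array both were at their highest signal of the transgenic livers of week 20.

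**Figure D3:**
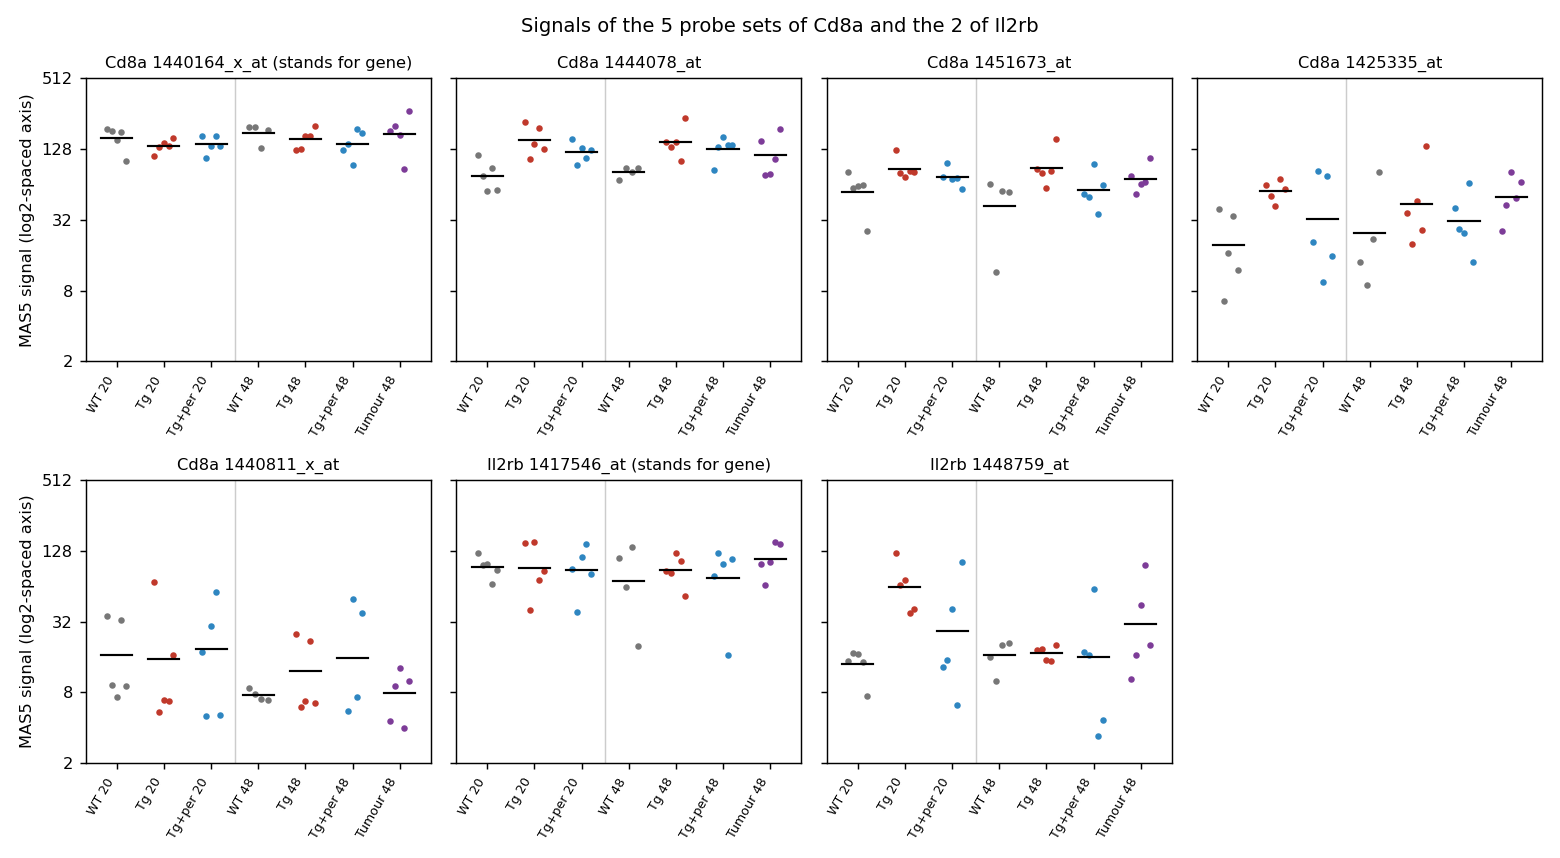
MAS5 signal (log2-spaced vertical axis, no unit) of the 5 probe sets of Cd8a and the 2 of Il2rb on every array, by group as in the plot of all markers; black lines are group means. Cd8a 1444078_at and Il2rb 1448759_at have their week 20 transgenic arrays above most or all wild-type ones, and the 2 probe sets that stand for these genes are not.

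Other genes linked to T and NK cells were counted in 6 lists, of which 63 genes were measured. The lists also hold cytokines and ligands that act on these cells, such as Il15 and Cxcl16, and not every gene is particular to them. At week 20, 19 of them rose in transgenic liver and none fell, against 11% of all genes called higher. At week 48, 11 rose and none fell, against 9.73%. Counts such as 1 of 9 or 2 of 13 in a single list lie near these shares. Of these calls, 12 and 7 were kept in every other setting in which the gene was tested and without each array. Between tumour and transgenic liver none of the 63 was called by limma, and 6 had an unadjusted p under 0.05. With peretinoin 1 was called, at week 20.

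Among the cytotoxic effectors, 6 of 10 genes rose at week 20 (median 0.76), among them Ccl5, a chemokine of activated T and NK cells (1.97 ± 0.22), Ctsw, a cathepsin of cytotoxic cells (1.56 ± 0.30), and Xcl1, a chemokine that attracts cross-presenting dendritic cells (0.87 ± 0.19). Serpinb9, which protects cells from granzyme B, rose by 0.65 ± 0.16, and Gzmk and Ifng were the remaining ones. The Ifng call was lost in 5 other settings, including the one without the arrays of other tissue. At week 48, 3 of the 10 rose (median 0.70): Ccl5 (1.79 ± 0.24), Xcl1 (1.28 ± 0.20) and Serpinb9 (0.89 ± 0.17).

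Cytokines of the IL-2 family, their receptors and homing genes formed another list, of which 6 of 13 genes rose at week 20 (median 0.81), among them Itgb7, an integrin chain of mucosal homing (1.33 ± 0.31), Cxcr6, the receptor of liver-homing T and NK cells (1.05 ± 0.21), its ligand Cxcl16 (0.96 ± 0.19) and Il15, which sustains NK and memory CD8 T cells (0.89 ± 0.20). At week 48, 4 of 13 rose (median 0.73): Cxcr6 (1.34 ± 0.22), Cxcl16 (1.32 ± 0.20), Il15 (0.98 ± 0.21) and Cxcr3 (0.77 ± 0.24), a receptor of interferon-induced chemokines. The Cxcr3 call of week 48 was lost without any 1 of 5 arrays.

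The receptor, signalling and transcription factor lists had 0 to 2 calls each. Among 9 NK cell receptors (median 0.27) Klrd1, which encodes CD94, rose by 1.24 ± 0.17 at week 20, and at week 48 (median 0.41) it rose by 1.55 ± 0.18 together with its partner Klrc1 (0.81 ± 0.27), whose call was lost without the arrays of other tissue. Of 13 genes of T cell receptor signalling 2 rose at week 20 (median 0.33), the adaptor Lat (1.92 ± 0.44) and the costimulatory receptor Cd28 (1.25 ± 0.29), and 0 at week 48 (median 0.45), where 2 rose without the arrays of other tissue. Of 8 lineage transcription factors Tbx21 (1.21 ± 0.38) and Runx3 (0.63 ± 0.21) rose at week 20 (median 0.18) and 0 at week 48 (median -0.03), and both calls were lost without any 1 of 5 arrays. The Runx3 call was also lost in 4 of 11 other settings. These were quantile normalisation, median centring, the mean of the gene's probe sets and the compared arrays alone. Over all alternatives the Runx3 change was as low as 0.15 and its limma adjusted p as high as 0.778. Of 10 activation and checkpoint receptors Havcr2, which encodes TIM-3 (1.63 ± 0.26), and Ctla4 (1.002 ± 0.32) rose at week 20 (median 0.12), and Havcr2 (0.82 ± 0.27) and Cd69 (0.83 ± 0.27) at week 48 (median 0.15). The Ctla4 call was lost without the arrays of other tissue, and the calls of week 48 were lost without several arrays each.

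**Figure D4:**
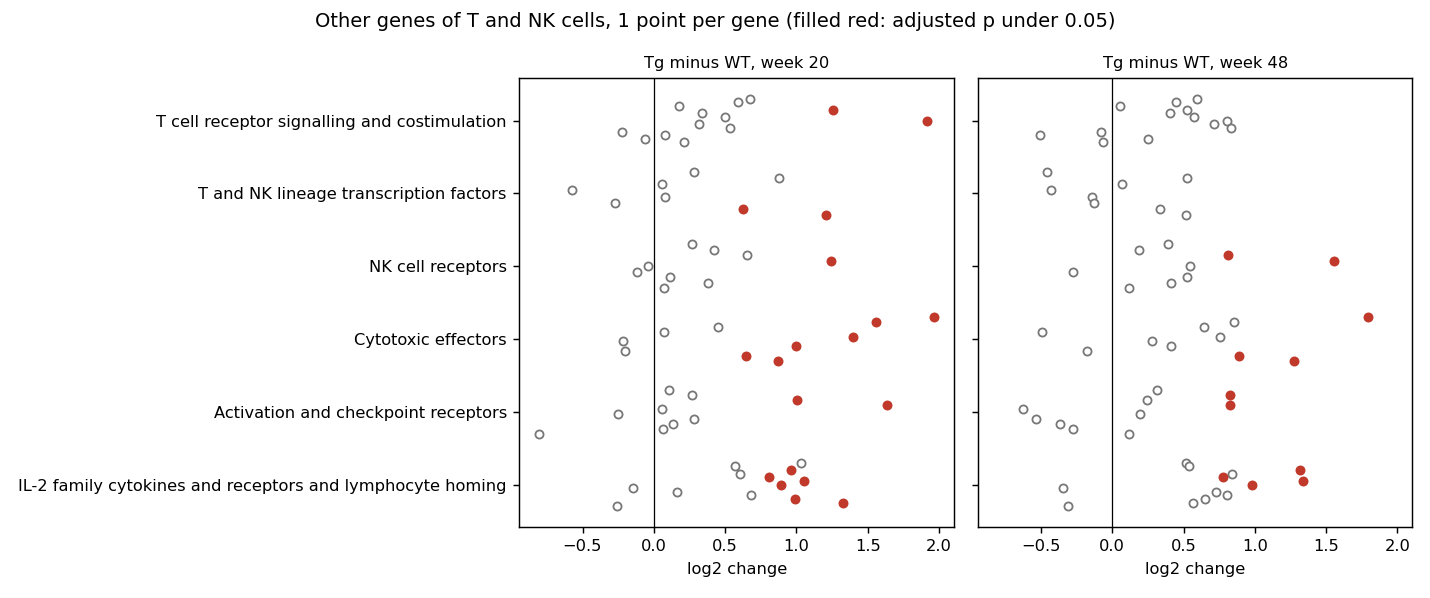
Difference of log2(signal + 16) between transgenic and wild-type liver (horizontal axis, log2 units) for 63 other genes in 6 lists, at week 20 (left) and week 48 (right). The genes are linked to T and NK cells, but not all are particular to them. Each point is 1 gene and filled red points are called: 19 at week 20 and 11 at week 48, all to the right of 0.

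Lat was the only gene of these lists called with peretinoin. It gave 31.3, 35.1, 118.8, 153.3 and 20 in wild-type liver of week 20, 374.6, 148.2, 264.9, 298.2 and 252.1 in transgenic liver and 21.7, 21.9, 63.5, 31.7 and 182.2 with peretinoin. It fell by 2.09 on the log2 scale with peretinoin (adjusted p = 0.0134, limma), and by 2.75 without the arrays of other tissue. Peretinoin replicate 5, one of those arrays, lay within the range of the basal diet. The call was lost in a fit of the 2 groups alone and without transgenic replicate 3, peretinoin replicate 1 or peretinoin replicate 2. At week 48 no gene of the 6 lists was called between the diets by limma, and 12 of 63 had an unadjusted p under 0.05. The medians of the lists with peretinoin ranged from -0.34 to -0.09 at week 20 and from -0.48 to 0.10 at week 48.

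Some markers of other cells moved in the comparisons with wild type. Over all genes 11% were called higher at week 20 and 9.73% at week 48. Called lower were 974 of 18193 at week 20 and 4.6% at week 48. Single calls in lists as short as those below cannot be told apart from these shares. Of 5 pan-leukocyte genes, which mark all white blood cells, 4 rose at week 20 (median 1.04) and 5 at week 48 (median 1.54). At week 20 their summed signal was 2686.8 to 3790.5 on wild-type arrays against 6624.7 to 9323.4 on transgenic ones. At week 48 it was 2499.1 to 3134.3 against 5825.5 to 11386. With peretinoin the sums were 3702.9 to 7037.4 at week 20 and 3265.4 to 8142.6 at week 48, and in tumours 5947.5 to 11028. Of 6 dendritic cell genes 3 rose at week 20 and 1 at week 48, with sums of 398.3 to 526.1 against 860.9 to 986 at week 20. Of 7 B and plasma cell genes 1 rose at week 20 and 2 at week 48, and of 4 neutrophil genes 1 at each age. Of 7 macrophage genes 2 fell at week 20, Clec4f and Cd163, and at week 48 Cd68 rose and Cd163 fell. Of 5 hepatocyte genes 2 fell at week 20 and 3 at week 48, with sums of 138680 to 176280 against 111440 to 144230 at week 20. In tumours against wild-type liver of week 48, 3 of the 5 fell, where 6.56% of all genes were called lower. The 3 erythroid genes included 1 that fell at each age, and no gene of the lymph node, muscle or pancreas lists was called. The part of these changes in those of the 10 markers was not tested.

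Within groups, the relation between markers was tested for Cd3e alone. Cd3e, the CD3 chain of highest mean signal, was set against the other 9 over 34 arrays after the group means were removed. Pearson's r ranged from 0.0831 (Il2rb) to 0.33 (Gzmb), and Spearman's rho for Gzmb was 0.279. None of the 9 relations reached an adjusted p under 0.05, and none an unadjusted one (permutation test within groups, two-sided; for Gzmb p = 0.0889 for r and p = 0.14 for rho, adjusted p = 0.463 and 0.42). Without the 2 arrays farthest from the median of Cd3e, r for Gzmb was 0.313. Among all 45 pairs of the markers, described without a test, r ranged from -0.273 (Cd4 with Il2rb) to 0.516 (Cd3g with Gzmb), with a median of 0.24 and 39 pairs above 0. Cd3g with Nkg7 (0.497), Gzmb with Nkg7 (0.488), Gzma with Nkg7 (0.483) and Cd3d with Gzmb (0.461) came next. The 10 genes most like Cd3e by the same measure had r from 0.696 (Fzd10os) to 0.615 (Irf8), with Snx20, Zswim1, Was, Klra2, Smurf1, Sptbn4, Gpsm3 and Ngp between them. All these values share the arrays and their scaling.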

How the data were processed

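RNA of 34 liver and tumour samples was isolated using RNeasy reagents, and biotinylated cRNA was hybridised, per the labels' protocols. The deposited signal intensities were computed by the authors with MAS5, per the submitters' processing notes, and are linear. The MAS5 version and a genome build are not given in the sources used here. The 2% trimmed mean of every array was 500.003 to 500.004. No scan dates were used here, and 0 columns stayed unmapped. Symbols are those of the platform's annotation (34945 of 45101 probe sets have exactly 1), and promoters are those of RefSeq (GRCm38.p6).

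Signals were taken as log2(signal + 16). All 34 arrays entered 1 limma 3.58.1 fit (R 4.3.3; lmFit, eBayes with an intensity trend) of 7 groups on 18193 genes, without a filter on low values, so that all 10 markers were tested. P-values were adjusted by Benjamini-Hochberg over all genes of a comparison. All markers were named. From each list the called genes of smallest p, and any that a sentence needed, were named. The markers and lists were chosen with earlier results of these data known. Scripts were tested on simulated data. For transgenic against wild-type liver of week 20, the fit called 21.9% of simulated 1.5-fold changes, 53.1% of 2-fold and 94.4% of 4-fold ones. A marker that was not called may therefore still have changed by such small amounts. Correlations used 100000 resamples. The number of arrays limits the precision.

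Alternatives were offsets of 1 and 64, filters to the upper 60% and 40% of probe sets, quantile normalisation, median centring, the mean of a gene's probe sets, no intensity trend, array weights, a replicate block, fits without 6 arrays with transcripts of other tissue, fits of the compared arrays alone and fits without each array in turn.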

Additional observations from a re-analysis of the deposited data

Results flagged for a closer look

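In each group of 4 or 5 arrays, the highest or lowest signal of each of the 16 probe sets was compared with its neighbour (Dixon's test at 95%). The test was run on the linear signals, not on log2 values. Of 112 groups tested, 12 held an array that stood apart. The nominal rate of about 1 in 20 groups holds for normally distributed values, which was not checked, and the probe sets share arrays. The count therefore does not show an excess over chance. Transgenic liver replicate 5 of week 48 was high for Gzmb (221.8, others 64.2 to 109.6), Nkg7 (313.9, others 107.5 to 157.8), Cd8a 1451673_at (155.8, others 60.4 to 86.3) and Cd8a 1425335_at (136.9, others 20 to 46.3). Tumour replicate 5 was high for Gzmb (194.5, others 46.1 to 67.7). Transgenic liver replicate 1 of week 20 was high for Cd8a 1451673_at (125.6, others 74.4 to 83.1) and Cd8a 1440811_x_at (69.3, others 5.4 to 16.6). Wild-type liver replicate 3 of week 20 was high for Cd3d (75.4, others 11.1 to 21.2), and wild-type replicate 2 of week 48 was low for Cd8a 1451673_at (11.5, others 55.7 to 64.4). With peretinoin, replicate 3 of week 20 was low for Nkg7 (87.4, others 144.3 to 167.3), replicate 3 of week 48 was high for Il2rb 1448759_at (60.4, others 3.4 to 17.8) and replicate 4 of week 48 was high for Cd4 (17.9, others 12.8 to 14.2).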

How the results depend on the processing

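The Cd3d, Cd3g and Gzmb calls in transgenic liver of week 20, the Cd3g and Gzmb calls of week 48 and the Gzmb call in tumours against wild type held in every alternative that tested these genes and without each array. No called value changed sign, and 38 of 843 values of uncalled markers did.

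Between peretinoin and basal diet at week 48, 1 marker (Cd3g) instead of 0 was called with an offset of 64, with the upper 60% of probe sets, with the mean of a gene's probe sets, without the intensity trend and with the replicate block, and 0 or 1 without each array. With the upper 40% of probe sets, where Cd8a was the only marker tested, 0 were called in transgenic or tumour against wild type and between the ages of the wild type. The last count was also 0 with the upper 60%, without the 6 arrays of other tissue, with the compared arrays alone and, at the lowest, without 1 array (0 to 1). Tumours against wild type gave 5 markers with quantile normalisation and 1 with the compared arrays alone, and transgenic against wild type at week 48 gave 3 with the compared arrays alone. The change with the transgene differed between ages for 0 or 1 marker without each array. Of the further probe sets 1 instead of 2 was called with the upper 60%, and 0 to 2 without each array. The causes of these differences were not tested, except that the filters leave fewer markers in the fit. In no comparison did every same-numbered pair of arrays correlate above 0.1 in its deviations from the group means. By that rule the numbers were not taken to pair the arrays. Whether tumours and livers of the same number came from the same mouse was not tested, and they were compared unpaired. At week 20 the mean r of same-numbered pairs was 0.0181 (transgenic against wild type) and -0.00786 (peretinoin). At week 48 it was 0.119 against -0.0285 for other pairs (transgenic against wild type), 0.125 against -0.0314 (tumour against liver, all 5 pairs above 0, and 8 of 10 arrays closest to their own number) and 0.0772 against -0.0144 (peretinoin). The replicate block was a separate setting, in which arrays of the same number shared a shift across all 7 groups. It held no term for pairs of tumour and liver within week 48. Whether pairing would change the tumour comparison was therefore not tested. The block moved marker counts only for peretinoin at week 48 and for tumours against wild type, from 3 to 4.

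Counts over all genes moved by more than 1.5 times for peretinoin at week 20 (264 genes; 34 without transgenic replicate 3, 1021 with array weights) and at week 48 (62 genes; 3 with the compared arrays alone, 130 without peretinoin replicate 4), between wild-type ages (862; 256 with the compared arrays alone), between transgenic ages (1937; 3072 with array weights) and on peretinoin (1664; 452 with the compared arrays alone). For the differences between ages they ranged from 10 to 62 around 20 genes (transgene) and from 5 to 222 around 48 (peretinoin). Without tumour replicate 2 or 4, tumours differed from liver in 2 or 5 genes. The share of calls that were higher in transgenic liver was 67.2% at week 20 and 55.8% with quantile normalisation or 46.5% with median centring, under which the all-gene median change went from 0.02 to -0.11; at week 48 it was 67.9% and 84.3% with median centring. For tumours against wild type it was 65.5% and 79.4%, for peretinoin at week 20 56.1% and 41.3%, and at week 48 19.4% and 38.5%. Low signals near the background limit what Cd4 and Cd8b1 can show.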
